A study of Homo sapiens with 4 samples.

Results

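The genes described here are those of the ATF4 response, with the enzymes that charge tRNAs with amino acids, in EJM myeloma cells with an induced NF-κB inhibitor. The list holds 48 genes. It comprises ATF4 and other stress regulators, the enzymes and carriers that supply amino acids and folate-bound carbon units, and 19 genes of cytosolic aminoacyl-tRNA synthetases. Members were found by their symbol in the array annotation, older aliases included, and the probes of a gene were averaged on each array. A probe was found for 25 members. Of these, 24 had a value on at least 3 arrays and are called the measured members, out of 7713 features (named genes and unnamed probes) with as many values. ALDH18A1, which makes the precursor of proline and ornithine, had values on 2 arrays and was not tested. Its log2 ratio was 0.18 on day 1 and 0.032 on day 4. The other 23 members had no probe in the annotation used here, among them DDIT4, CHAC1, SESN2, PHGDH, PSAT1, PSPH, SLC7A11, SLC1A5, CEBPG and 11 synthetases.

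EJM is an established human cell line of multiple myeloma, a cancer of plasma cells, which secrete antibodies. On each of 4 two-colour arrays, RNA of cells kept at 37 °C for 1, 2, 3 or 4 days with doxycycline (20 µg/ml) was labelled with Cy5, and RNA of uninduced EJM cells with Cy3. Both channels came from cells carrying a super-repressor form of IκBα under a tetracycline-regulated repressor. IκBα holds NF-κB in the cytoplasm, and a super-repressor resists the breakdown that would release NF-κB. The uninduced cells therefore shared the transgene and lacked the drug, and no doxycycline-treated cells without the transgene were analysed here. The sources used here do not say whether the line was a single clone or whether the same control RNA served every array.

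The deposited value is the log ratio of the channels, taken as log2 of Cy5 over Cy3, so that a positive value means more RNA in induced cells. Neither direction nor log base is stated. The opposite orientation would turn every sign below, and another base would rescale every value and fold but no test. Log ratios carry no level, so the markers of plasma cells could not be checked for presence, and levels of different genes are not compared. The days 1 and 2 arrays held fewer values and were more widely spread than the days 3 and 4 arrays. Of the 64 member probes, 56 had a value on day 1, 51 on day 2, 62 on day 3 and all 64 on day 4. The SD of the log2 ratio over all probes was 0.517 (day 1), 0.569 (day 2), 0.345 (day 3) and 0.38 (day 4). The part of missing values and spread in the results below was not tested.

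ATF4 is a transcription factor of the integrated stress response. When amino acids run short or unfolded protein accumulates in the endoplasmic reticulum, kinases phosphorylate the initiation factor eIF2, most translation slows, and the ATF4 mRNA is translated more. ATF4 then pairs with C/EBP factors and activates genes for amino acid synthesis, amino acid import and tRNA charging. Plasma cells and myeloma cells make large amounts of immunoglobulin and depend on this supply and on the handling of unfolded protein. The array measured mRNA and not the translation of ATF4.

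The element to which ATF4 and C/EBP factors bind together has the core TGATGNAA, which reads TTNCATCA on the other strand. Both were searched in RefSeq promoter windows (GRCh38.p14, 250 bases before to 50 after each annotated start site), in a table that held 40 of the 48 members. The core was present in at least 1 window of 14 members (35.0%), and in 4.46% of all 27305 genes of that table. Counted by window, it was present in 14 of 59 member windows (23.7%) and in 3.62% of all windows. It is a string of letters and not a measured binding site. The 9 measured members that carried it are shown with up to 11 bases on either side, 5′ to 3′ on the strand of the gene, with the core in capitals.
ASNS: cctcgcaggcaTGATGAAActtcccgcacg
AARS1: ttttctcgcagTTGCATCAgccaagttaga
GOT1: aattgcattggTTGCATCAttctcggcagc
IARS1: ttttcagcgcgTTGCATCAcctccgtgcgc
SLC1A4: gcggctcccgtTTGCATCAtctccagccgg
TARS1: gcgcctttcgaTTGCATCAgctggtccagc
GARS1: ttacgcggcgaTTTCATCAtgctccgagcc
NARS1: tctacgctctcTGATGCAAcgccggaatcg
SLC3A2: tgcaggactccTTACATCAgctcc

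The ASNS segment is chr7:97872458-97872487 on the minus strand, and its core begins 68 bases before the start site. The AARS1 segment is chr16:70289675-70289704 (minus strand), and the GOT1 segment is chr10:99430804-99430833 (minus strand), with cores beginning 187 and 198 bases before the start. The IARS1 segment is chr9:92293692-92293721 (minus strand), the SLC1A4 segment chr2:64989381-64989410 (plus strand) and the GARS1 segment chr7:30594834-30594863 (plus strand). Those cores begin 13, 7 and 33 bases before the start. In TARS1 (chr5:33440956-33440985, plus strand), NARS1 (chr18:57621804-57621833, minus strand) and SLC3A2 (chr11:62881725-62881748, plus strand) the core begins at base 3, 15 and 38 of the transcribed part. Members with no probe that carried the core were CARS1, MARS1, CHAC1, CEBPG and SLC1A5. Among the synthetases in the table, 7 of 16 carried it. The core was not found in the windows of the other 12 measured members in the table.

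The comparison set the log2 ratios of days 3 and 4 against those of days 1 and 2, with 2 arrays on each side, called here the late and the early arrays. By their median the measured members stood above the uninduced control on day 1 and below it from day 2 on. Over days 1 to 4 in turn, their median log2 ratio was 0.30, -0.085, -0.14 and -0.20. Over all 7713 features the median was -0.062, -0.081, 0.017 and 0.0115. On day 1, 20 of 24 members lay above 0, where 44.1% of all features did. Below 0 lay 15 of 23 on day 2 (58.3% of all features), 18 of 24 on day 3 (47.0% of all features) and 19 of 24 on day 4 (48.4% of all features).

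No member passed the test of the difference between late and early arrays (0 of 24; limma, Benjamini-Hochberg over all features, smallest adjusted p = 0.224 for SHMT2). Over all features 5 passed, or 0.0648%. The difference was below 0 for 17 members, above 0 for 6 and exactly 0 for AARS1, with a median of -0.20. With each array centred on its median 19 members lay below 0, and with their spreads also made equal 20 did, CEBPB, CTH and LARS1 among them. Over all features 43.4% of differences lay below 0 and the median was 0.074. An unadjusted p under 0.05 was found for 3 members, SHMT2, WARS1 and TARS1, all lower on days 3 and 4. Such a p with a lower value was found for 6.18% of all features. Both late arrays lay below both early arrays for 9 of the 23 members with all 4 values, and this held for 22.4% of all features with all 4 values. These were ATF4, DDIT3, SHMT2, MTHFD1, MTHFD2, SLC3A2, PYCR1, TARS1 and WARS1. With the averages taken over probes that had all 4 values, 8 of these 9 stayed separated and ATF4 did not. For DDIT3, PYCR1, TARS1 and WARS1 the early arrays were also both above 0 and the late ones both below it, which held for 6.58% of features. With the averages taken over probes that had all 4 values, DDIT3 lay above 0 on day 3. The reverse order, late above early, held for SHMT1 alone among the members and for 32.1% of features.

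**Figure D1:**
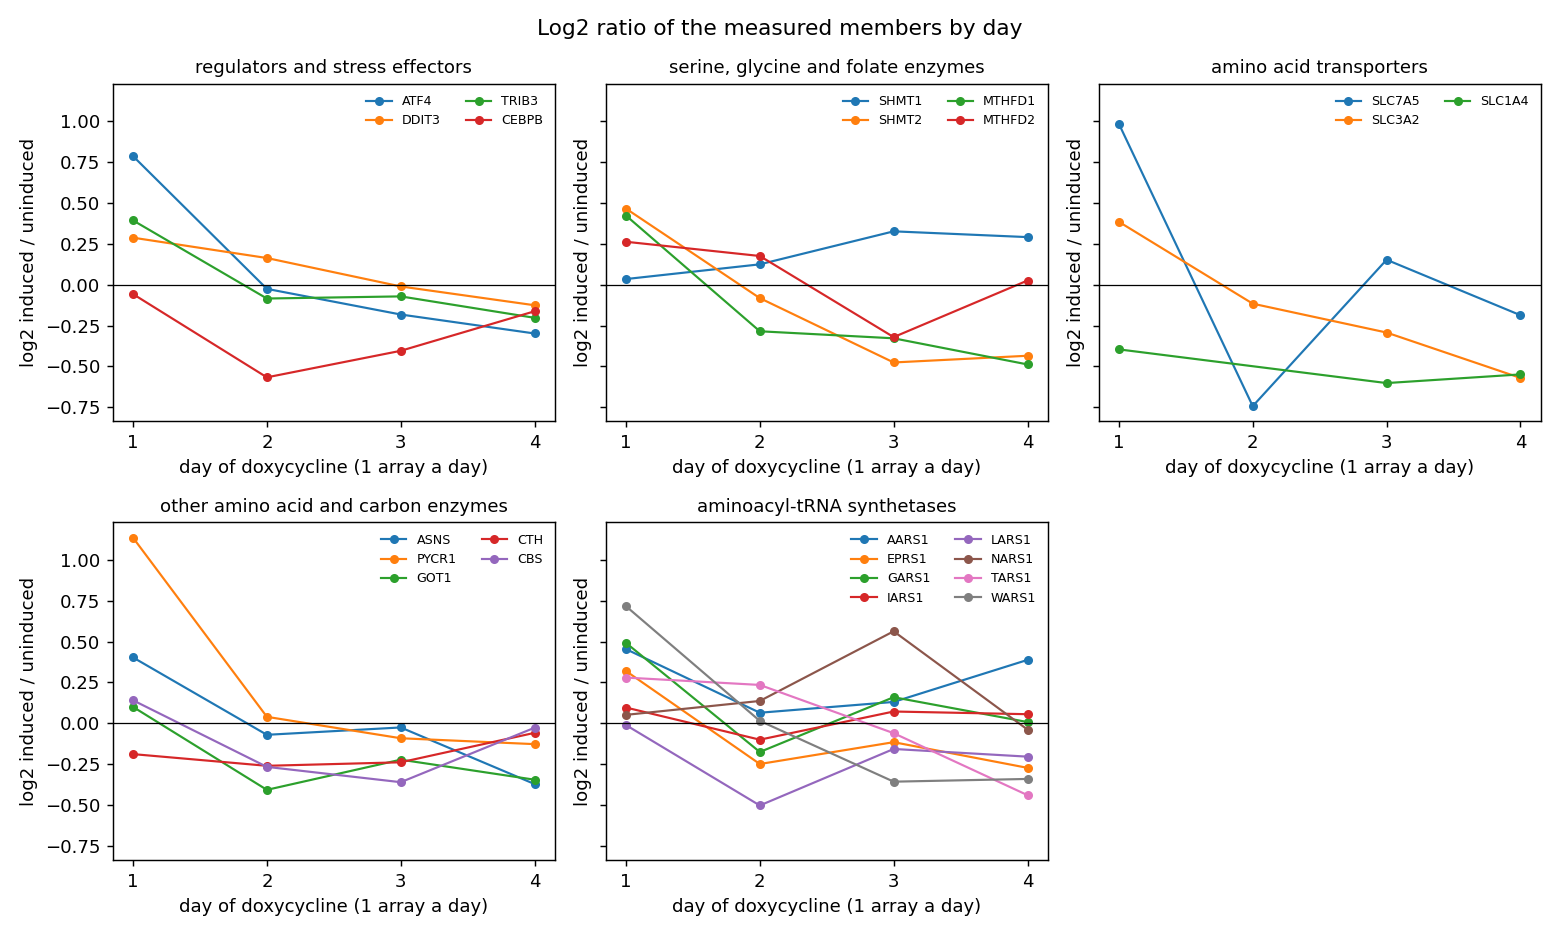
Log2 ratio of induced over uninduced cells (y axis) by day of doxycycline (x axis, 1 array a day) for the 24 measured members, in 5 panels by role. Lines join the arrays of a gene, and that of SLC1A4 spans the day 2 array, on which it had no value. On day 1, 20 of 24 members lie above 0, and on day 4, 19 lie below 0.

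Most of the distance lay between the day 1 and day 2 arrays. From day 1 to day 2 the value was lower for 21 of 23 members, with a median change of -0.49, where 57.7% of all features were lower with a median change of -0.078. From day 2 to day 3 it was lower for 10 of 23 members (41.9% of all features), and the median change was 0.0215. From day 3 to day 4 it was lower for 16 of 24 (53.5% of all features), with a median change of -0.081. Day 1 was the highest of the 4 arrays for 20 of 23 members and for 31.2% of features. The day 1 array therefore decides the comparison: without it the members' median difference was 0.055, 11 of 23 were below 0, and 1 member, SLC7A5, passed the threshold, upward, where 19.3% of all features passed. Without the day 2 array the median difference was -0.41, 21 of 24 lay below 0, and 7 members passed the threshold, with day 1 then the lone early array. In that fit 18.0% of all features passed.

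**Figure D2:**
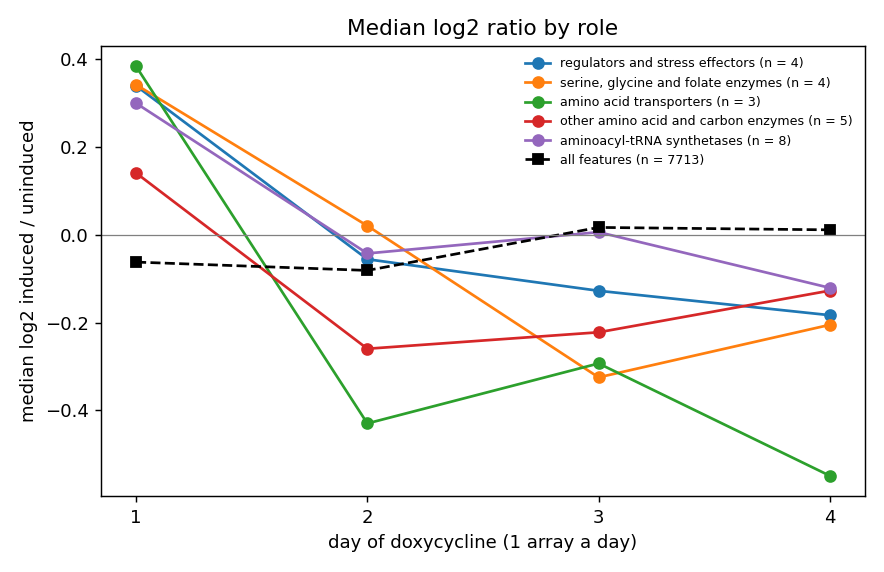
Median log2 ratio (y axis) of each role of measured members and of all features (black dashes) by day of doxycycline (x axis, 1 array a day). Each role stands above the median of all features on day 1, and the transporters, at -0.55 on day 4, stand lowest at the end.

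Among the regulators, ATF4 itself read 0.79 on day 1, a ratio of 1.72-fold, and then -0.026, -0.18 and -0.30 on days 2 to 4. Day 1 stood apart, and on these averages both late arrays lay below both early ones. The difference was -0.62 ± 0.30 (SE, 2 against 2 arrays; limma adjusted p = 0.297, interval at 95% from -1.36 to 0.12). The arrays drew on different probes: of 5 ATF4 probes, 2 had a value on day 1, 1 on day 2 and all 5 on days 3 and 4. Probe 34825_1, the one with a value on day 2, read 0.85, -0.026, 0.09 and -0.51, and its difference was also -0.62. On that probe day 3 lay above day 2, so early and late arrays overlapped. Without the day 1 array the ATF4 difference was -0.215, and without the day 2 array it was -1.03.

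DDIT3 encodes CHOP, a stress-induced factor that promotes cell death and is a target of ATF4. It read 0.29, 0.16, -0.011 and -0.13 over days 1 to 4. On the average of its probes both early arrays lay above 0 and both late arrays below it. The difference on that average was -0.29 ± 0.17 (SE; limma adjusted p = 0.373). With only the probes that had all 4 values, DDIT3 averaged 0.067 on day 3, above 0. Of its 4 probes with all values, 3 were lower on the late days, and the other, 16842_1, read 0.95 on day 4. With that probe alone, chosen for having no missing value and being first in the table, the DDIT3 difference was 0.524.

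TRIB3, a pseudokinase that restrains ATF4 and CHOP, read 0.39 on day 1 and -0.085, -0.072 and -0.20 on days 2 to 4. Its early and late arrays overlapped, since the day 2 value lay between those of days 3 and 4. CEBPB, a C/EBP partner of ATF4, followed another course, at -0.058, -0.57, -0.40 and -0.16, with its lowest value on day 2 and overlapping early and late arrays. Its difference was 0.029 ± 0.24 (SE; limma adjusted p = 0.951). Its probes 16587_1 and 29636_1 had values only on days 3 and 4. The probe with all 4 values, 36760_1, read -0.94 on day 4, and with it alone the CEBPB difference was -0.357. The direction for CEBPB also turned with the arrays centred on their medians, to -0.0263, and with their spreads also made equal, to -0.137.

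Among the enzymes of serine, glycine and folate metabolism the mitochondrial enzyme SHMT2, which splits serine into glycine and a one-carbon unit, had the largest difference. It read 0.46, -0.083, -0.48 and -0.44 on days 1 to 4, so the late arrays lay below both early ones. The difference was -0.65 ± 0.23 (SE; unadjusted p = 0.0354, limma adjusted p = 0.224), or 1.56-fold. All 5 SHMT2 probes with 4 values were lower on the late days. Without the day 1 array the SHMT2 difference was -0.373, and without the day 2 array it was -0.92. The cytosolic counterpart SHMT1 read 0.034, 0.124, 0.33 and 0.29, with both late arrays above both early ones. Its difference was 0.23 ± 0.17 (SE; limma adjusted p = 0.457). The SHMT1 probes disagreed, and 1 of the 3 with all 4 values was lower on the late days. With that probe alone (16619_1) the SHMT1 difference turned to -0.16.

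MTHFD1, the cytosolic enzyme that interconverts folate-bound one-carbon units, read 0.42 on day 1 and -0.29, -0.33 and -0.49 on days 2 to 4. The day 2 value stood with the late ones and only the day 1 array was high. Its difference was -0.48 ± 0.27 (SE; limma adjusted p = 0.361), and all 3 probes were lower on the late days. Without the day 1 array the MTHFD1 difference was -0.123, and without the day 2 array it was -0.831. MTHFD2, the mitochondrial counterpart and a known ATF4 target, read 0.26, 0.175, -0.32 and 0.025 on its single probe. In MTHFD2 both early arrays were above 0 and day 3 was the low one. Its difference was -0.366, and without the day 3 array it was -0.194.

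Of the amino acid transporters, SLC3A2 and SLC7A5 encode the heavy and light chains of a carrier that imports large neutral amino acids such as leucine. On the average of its probes SLC3A2 read 0.38, -0.12, -0.29 and -0.57, each day below the one before, and early and late arrays did not overlap. On probe 30190_1 day 3 (-0.352) lay above day 2 (-0.373), so early and late arrays overlapped there. The SLC3A2 difference was -0.57 ± 0.24 (SE; limma adjusted p = 0.264), and both of its probes were lower on the late days. Without the day 1 array the SLC3A2 difference was -0.315, and without the day 2 array it was -0.816.

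SLC7A5 did not follow its partner chain. Its single probe read 0.98, -0.74, 0.15 and -0.19 over days 1 to 4, and early and late arrays overlapped. The day 1 and day 2 values of SLC7A5 differed more than those of any other measured member, and its difference of -0.14 ± 0.55 (SE; limma adjusted p = 0.901) had an interval at 95% from -1.51 to 1.24. Its direction rests on those arrays: the difference was 0.726 without day 1 and -1.0 without day 2. SLC1A4, a carrier of alanine, serine and cysteine, had a single probe with no value on day 2. It read -0.40, -0.60 and -0.55 on the other days. It was the measured member farthest below the control on the average of its arrays, which lack day 2, unlike those of the other members. Its difference was -0.18 ± 0.23 (SE, 1 against 2 arrays; limma adjusted p = 0.672).

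**Figure D3:**
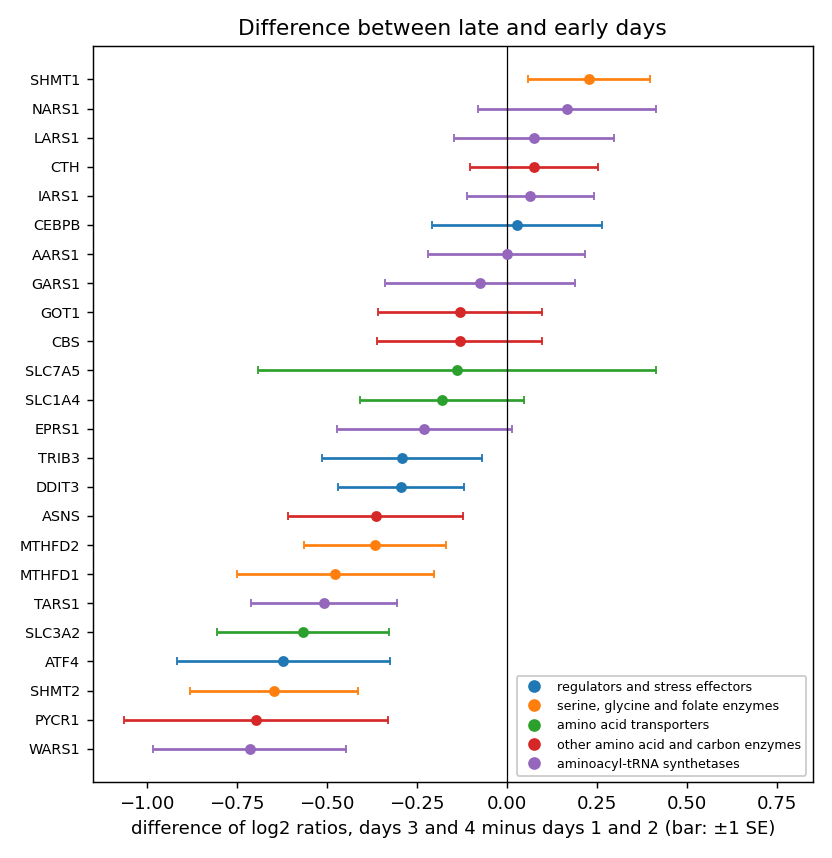
Difference of the log2 ratios, days 3 and 4 minus days 1 and 2 (x axis), for each of the 24 measured members (y axis), coloured by role. Bars are 1 standard error of the limma fit on either side. The members run from WARS1 at -0.71 to SHMT1 at 0.23, and 17 lie below 0.

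PYCR1 encodes the enzyme of the last step of proline synthesis in mitochondria. It read 1.14 on day 1, a ratio of 2.2-fold and the highest value of any measured member, and then 0.04, -0.091 and -0.127. The early arrays lay above 0 and the late ones below it, but day 2 was near the late values. The difference was -0.70 ± 0.37 (SE; limma adjusted p = 0.328). Only probe 35503_1 had values on days 1 and 2. Without the day 1 array the PYCR1 difference was -0.149, and without the day 2 array it was -1.24.

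ASNS, which makes asparagine and is among the best studied ATF4 targets, read 0.40 on day 1 and -0.07, -0.025 and -0.37 on days 2 to 4 on its single probe. Day 1 was high and day 4 low, with days 2 and 3 near 0, and early and late arrays overlapped. The difference was -0.36 ± 0.24 (SE; limma adjusted p = 0.413). It was -0.128 without the day 1 array, -0.192 without day 4 and -0.601 without day 2.

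On the averages of their probes the remaining enzymes of this kind lay mostly below the control. GOT1, the cytosolic aspartate aminotransferase, read 0.10, -0.41, -0.22 and -0.34, and CTH, which releases cysteine from cystathionine, read -0.188, -0.26, -0.24 and -0.058. CBS, which makes cystathionine, read 0.141, -0.27, -0.36 and -0.027. None of the 3 CBS probes had values on all 4 arrays, so these averages drew on different probes. On these averages early and late arrays overlapped for each of these genes, but the probes of CTH and of GOT1 disagreed. CTH probe 17366_1 read -0.385, -0.657, -0.161 and 0.031, with late above early. Probe 28981_1 read 0.009, 0.138, -0.315 and -0.147, with late below early. GOT1 probe 26012_1 read 0.626, 0.045, 0.01 and -0.11, with late below early. Probe 29659_1 read -0.425, -0.858, -0.454 and -0.579, with overlap.

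The synthetases differed among themselves. Of 8 measured, 7 lay above 0 on day 1 and 5 lay below 0 on day 4. Their medians were 0.30, -0.042, 0.00625 and -0.12 on days 1 to 4, against 0.34, -0.085, -0.23 and -0.195 for the 16 other measured members. The median difference of late from early arrays was -0.037 for the synthetases and -0.29 for the other members. That contrast between the groups of members was not tested.

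WARS1, the tryptophan enzyme, which interferon-γ also induces, had the largest difference of all measured members. It read 0.72, 0.015, -0.36 and -0.34 on days 1 to 4, with both late arrays below both early ones. The difference was -0.71 ± 0.27 (SE; unadjusted p = 0.0402, limma adjusted p = 0.232), or 1.64-fold. All 4 WARS1 probes had 4 values and all were lower on the late days. Without the day 1 array the WARS1 difference was -0.363, and without the day 2 array it was -1.06.

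TARS1, the threonine enzyme, read 0.28, 0.235, -0.06 and -0.44 over days 1 to 4. In TARS1 the early arrays stood together and day 4 was lowest. Its difference was -0.51 ± 0.20 (SE; unadjusted p = 0.0491, limma adjusted p = 0.248), without the day 1 array it was -0.484, and without the day 4 array it was -0.318. TARS1 rests on a single probe.

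On the averages of their probes the other synthetases showed no separation of late from early arrays. AARS1, for alanine, was above 0 on every array, at 0.45, 0.065, 0.131 and 0.39, and its late and early means were equal (difference 0.0 ± 0.22, SE; interval at 95% from -0.54 to 0.54). GARS1, for glycine, averaged 0.49, -0.175, 0.16 and 0.008, but its 3 probes disagreed. Probe 27416_1 was above 0 on every array and 34030_1 below 0 on every array. The GARS1 difference was -0.452 on 16938_1, -0.1385 on 27416_1 and 0.367 on 34030_1. EPRS1, for glutamate and proline, averaged 0.32, -0.25, -0.115 and -0.27, but its probes moved apart. Probe 29230_1 read 0.86, 0.367, -0.393 and -0.343, with late below early. Probe 33755_1 read -0.22, -0.864, 0.163 and -0.201, with late above early. The EPRS1 difference was -0.229 on the average of both, -0.982 with 29230_1 alone and 0.523 on 33755_1. On the average without the day 1 array the EPRS1 difference was 0.055. IARS1, for isoleucine, averaged within 0.10 of 0, at 0.097, -0.10, 0.0725 and 0.056, while its 6 probes ranged from -0.724 to 0.831. Of these probes 4 were lower on the late days, and 35255_1 was the highest above, with a difference of 1.02. The IARS1 difference turned from 0.0658 on the average to -0.368 with probe 29267_1 alone. LARS1, for leucine, read -0.0105, -0.50, -0.16 and -0.20 and was below 0 on each array. NARS1, for asparagine, read 0.052, 0.137, 0.56 and -0.038, with day 3 high.

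**Figure D4:**
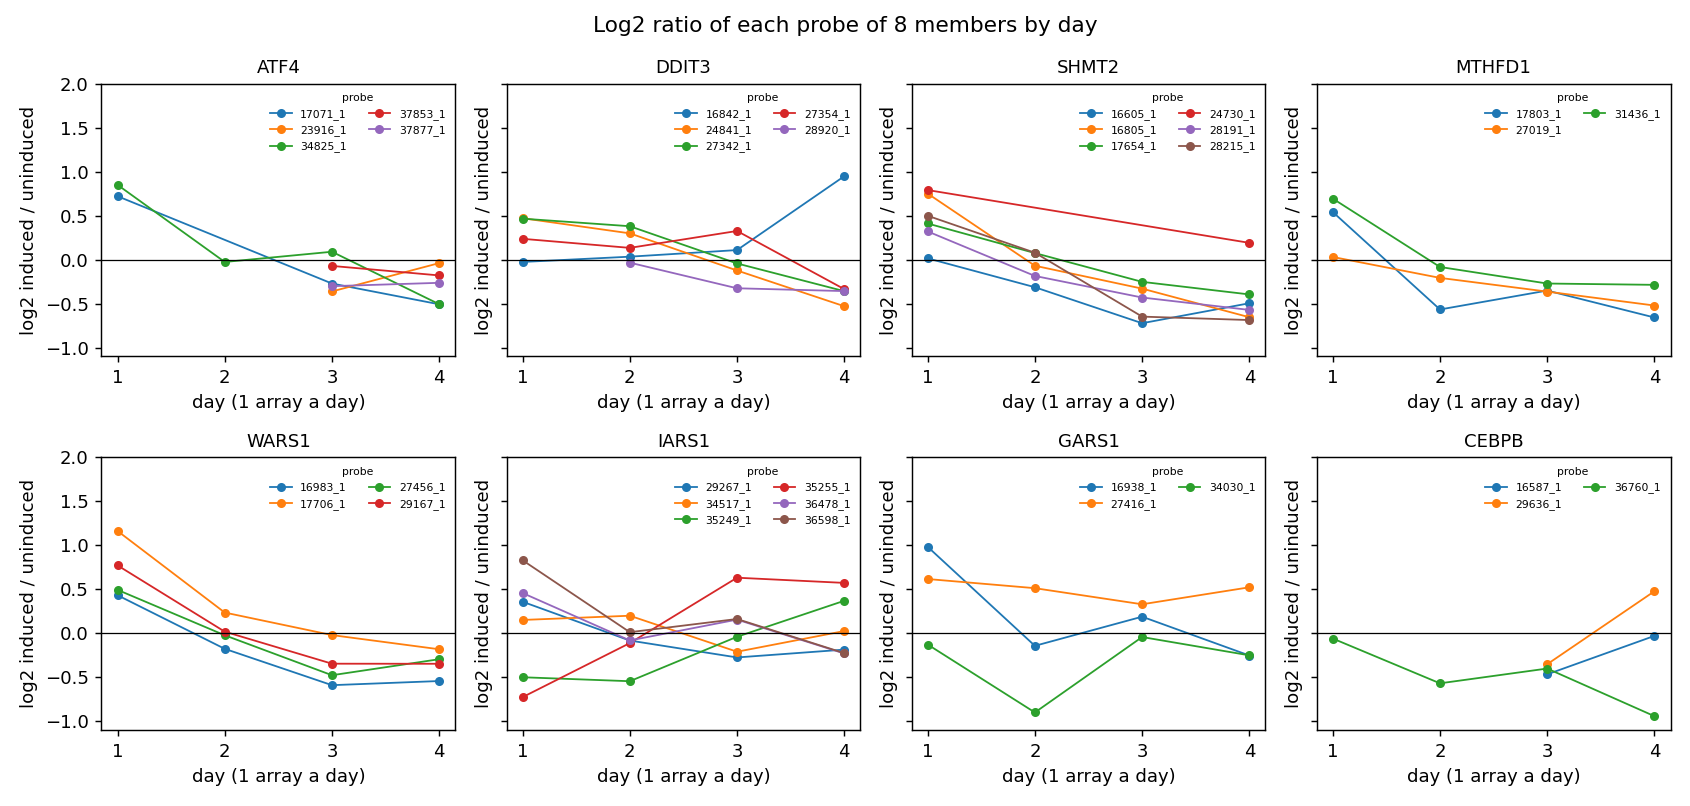
Log2 ratio of induced over uninduced cells (y axis) by day (x axis, 1 array a day) for each probe of 8 members, with lines that join the values of a probe across any missing array. The 4 WARS1 probes and the 5 SHMT2 probes with all values are each lower on day 2 than on day 1. All of these are lower again on day 3, while the IARS1, GARS1, DDIT3 and CEBPB probes disagree on day 4.

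Probes of the same gene served as a check of the averages, not as replicates. Of 49 member probes with values on all 4 arrays, 36 were lower on the late days. Members with more probes weigh more here: IARS1, SHMT2 and WARS1 gave 6, 5 and 4 of these probes. The shares among the probes of all genes were not counted, for this count or the next. Of 13 members with at least 2 such probes, 5 had all of them lower: SHMT2, MTHFD1, WARS1, SLC3A2 and TRIB3. Members with and without the promoter core overlapped in their differences. Of the measured members, 21 had a promoter window, and sequence outside these windows was not searched. The median difference was -0.13 for the 9 with the core in a window (from -0.57 to 0.17). It was -0.26 for the 12 without the core in a window (from -0.71 to 0.23).

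The second comparison asked whether the members differed from the uninduced control over the whole course, as the mean of the 4 arrays against 0. No member passed (0 of 24 with limma, smallest adjusted p = 0.243), and 26 of all features did, or 0.337%. The median of the means was 0.0061 over the members and -0.032 over all features, and 11 members lay below 0, where 56.0% of all features did. An unadjusted p under 0.05 was found for SLC1A4 alone, with a mean of -0.52 ± 0.11 (SD, 3 arrays; limma adjusted p = 0.243). It lay below 0 on each of its 3 arrays, on a single probe. An unadjusted p under 0.05 with a lower value was found for 6.0% of all features. The other members with means far from 0 were CEBPB at -0.30 ± 0.23 and AARS1 at 0.26 ± 0.19 (SD, 4 arrays; limma adjusted p = 0.413 and 0.439). On its probe with all 4 values CEBPB had a mean of -0.491. With days 3 and 4 alone the members' median was -0.187 and 19 of 24 lay below 0. SLC1A4 (-0.576, limma adjusted p = 0.0188) and SHMT2 (-0.456, limma adjusted p = 0.0389) then passed the threshold, as did 8.3% of all features.

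Other genes of the pathway did not all take the members' course, and none of them passed in either comparison. Among 29 other ATF4 and stress response genes, 15 were measured. Their median ran from -0.21 (day 1) to -0.061 (day 4), 9 of 15 differences lay below 0, and the median difference was -0.0615. The largest differences were upward. PPP1R15B, a subunit of the phosphatase that reverses eIF2 phosphorylation, read -0.775, 0.018, 0.41 and 0.39 (difference 0.78 ± 0.29, SE; limma adjusted p = 0.231). SLC38A1, a glutamine carrier, read -0.51, -0.56, 0.032 and 0.25 (difference 0.68 ± 0.18, SE; limma adjusted p = 0.181).

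The eIF2 kinases and the subunits of eIF2 and its exchange factor eIF2B had 5 of 12 measured. Their median was 0.29 on day 1 and -0.135, -0.008 and -0.0155 on days 2 to 4, and the median difference was -0.158. EIF2S2, the β subunit, read 0.60, -0.193, -0.037 and -0.146, and EIF2S1, the α subunit that is phosphorylated, read -0.060, -0.455, -0.056 and 0.081. The mitochondrial synthetases and partners of the cytosolic ones had 5 of 22 measured, and 4 of these had differences above 0, with a median of 0.28. FARS2, for phenylalanine, read -0.405, -0.9, 0.57 and -0.166, and HARS2, for histidine, read -0.122, -0.767, -0.123 and 0.0135. Of 23 other amino acid and folate enzymes 7 were measured, with a median difference of -0.016. GOT2, the mitochondrial aspartate aminotransferase, read 0.168, 0.29, -0.146 and -0.25, and GCLC, of glutathione synthesis, read -1.55, 1.09, 0.126 and 0.032.

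Plasma cell markers also lay lower on the late days. All 10 were measured, with medians of 0.57, 0.70, 0.24 and 0.126 on days 1 to 4 and 8 of 10 differences below 0 (median -0.45). XBP1, the transcription factor of the secretory program, read 0.85, 0.70, 0.24 and -0.20 (difference -0.76 ± 0.22, SE; limma adjusted p = 0.182), and PRDM1, which drives plasma cell differentiation, read 0.46, 0.89, -0.063 and -0.096 (difference -0.76 ± 0.21, SE; limma adjusted p = 0.182). Unlike the members' median, that of these markers was no lower on day 2 than on day 1. T cell markers had a median difference of -0.040 over 6 of 8 genes, with CD3D at 0.70 and CD7 at -0.43. Myeloid markers had a median difference of 0.31 over 6 of 7 genes, with FCGR1A at 0.82 and CD14 at 0.51. The part of any of these genes in the members' values was not tested. Both channels came from the EJM line, so the T cell and myeloid markers were read in RNA of that line. A change in some of the cells and a change in all of them cannot be told apart in such bulk RNA.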

How the data were processed

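The file holds the authors' deposited log2 ratios for 15246 probes on 4 two-colour arrays; base and direction are not stated, and the sources used here do not give the background correction, normalization or spot filter. Per the labels, induced cells were in Cy5 and uninduced cells in Cy3 on every array, with no dye swap, from 50 µg of total RNA each. A gene-specific dye bias would remain in the mean and would cancel, if constant, in the difference of late from early days. A single symbol was given for 10169 probes. Symbols were updated through Entrez identifiers with RefSeq (GRCh38.p14, names and promoter windows only), which held 10128 of them. Probes of a symbol were averaged per array and unnamed probes kept apart, and 7713 features with at least 3 values were tested (4212 named genes, 3501 unnamed probes).

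Both comparisons used limma 3.58.1 in R 4.3.3 (lmFit, eBayes, two-sided), fitted over all features, with p-values adjusted by Benjamini-Hochberg and called under 0.05, after the script was tested on simulated data. The arrays are different days, not replicates of a condition, and separate cultures are not stated, so the p-values reflect only how far these arrays differ, and their number limits the precision. Time in culture and induction cannot be told apart, since it is not stated whether uninduced cells were cultured alongside for each day. Members and lists were chosen with earlier results of these data known. Every measured member could be named. Differences with errors are given for ATF4, for members past the threshold and for the 2 largest differences of each role, and other members' differences beside them were added after their values were seen. In each other list the 2 largest differences are named. Alternatives covered array scaling, the choice of probes, missing values, array weights, the variance prior, a slope on day and the arrays used.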

Additional observations from a re-analysis of the deposited data

Results flagged for a closer look

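For 4 measured members both arrays of days 1 and 2 lay above 0 and both arrays of days 3 and 4 below 0. Among all features with 4 values 6.58% did so. The differences were -0.293 for DDIT3, -0.697 for PYCR1, -0.507 for TARS1 and -0.714 for WARS1. The limma test of the difference itself was run for each and none passed (adjusted p = 0.373, 0.328, 0.248 and 0.232). On 1 array of each gene the value was close to 0: day 3 for DDIT3 (-0.011) and TARS1 (-0.06), and day 2 for PYCR1 (0.04) and WARS1 (0.015). With only the probes that had all 4 values, the DDIT3 average on day 3 was 0.067, and DDIT3 then left this pattern.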

How the results depend on the processing

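Each log ratio already sets induced against uninduced RNA on the same array. Late arrays were not paired with early ones, since each day had 1 array and the labels give no replicate numbers. For the difference of late from early days, 5 features were called; 2 were called with each array centred on its median, 3 with arrays also scaled to the same spread, 0 with probes that had all 4 values (1134 at an unadjusted p under 0.05), 0 with features that had all 4 values (1128) and 0 for the limma slope on day (1211). Leaving out an array gave 0 to 1331. The lone early or late array is then assumed to vary like the same feature's arrays in the other part of the course. The fits without day 1 or day 2 estimate the spread from days 3 and 4 alone, moderated over all features. For the mean against 0, 26 features were called, against 42 with values on all 4 arrays, 171 with array weights, 1 with days 1 and 2 alone and 630 with days 3 and 4 alone, and leaving out an array left 3 to 5. The cause was not tested.

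The members' median difference was -0.204. It lay between -0.367 and -0.204 under the scaling, probe, missing-value, weight and prior alternatives, and between -0.409 and 0.055 when an array was left out, the last without day 1. The median of their means ran from -0.187 (days 3 and 4 alone) to 0.134 (days 1 and 2 alone), and from -0.169 to 0.0586 with an array left out. SLC7A5 turned past the threshold, from -1.0 to 0.726, according to which of days 1 and 2 was left out. No other measured member changed sign past the threshold under these alternatives. With array weights the mean of SLC1A4 passed (-0.564, limma adjusted p = 0.0454). The file holds ratios and no spot brightness, so dim spots were not filtered and signal over background is unknown.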
